A study of Mus musculus with 6 samples.

Results

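Complement components and receptors were described in RAW264.7 cells through 9 genes chosen by symbol: C1qa, C1qb, C1qc, C1ra, C3, Cfb and Cfp, which encode components, and C3ar1 and C5ar1, which encode receptors. All 9 had an entry in the deposited table, among 40773 gene symbols, and 6 of them passed the filter on low counts that left 11498 genes for testing. This is a virus-transformed mouse macrophage line, with a genotype given as plain in the labels. A first group of 3 cultures received lipopolysaccharide (LPS) from bacterial outer membranes at 100 ng/mL for 24 h. The second group of 3 received the same LPS together with 3A2, an antibody that neutralizes the membrane metalloproteinase MMP14, at 50 µg/mL. Both groups thus carried LPS, and cells without LPS or with a control antibody were not analysed here. The comparison asks what blocking MMP14 changes in the transcripts of LPS-treated macrophages.

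Complement is a cascade of plasma proteins that tags particles for uptake, recruits leukocytes and can lyse cells. The classical pathway starts when C1q, built of A, B and C chains, binds its target and activates the proteases C1r and C1s, the lectin pathway starts with mannose-binding lectin, ficolins or collectins, and the alternative pathway amplifies C3 cleavage through factor B, factor D and the stabilizer properdin. The fragments C3a and C5a signal through their receptors on myeloid cells, and C3b fragments bound to particles are recognized by integrin receptors such as CR3. The liver makes most components, macrophages are a known main source of C1q and myeloid cells of properdin, and inflammatory stimuli are known to induce C3 and factor B in many cells.

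The libraries held 6060732 to 7432553 counts each, and 14998 to 15309 genes had a count. Mitochondrial mRNAs made up 2.22% to 2.35% of counts in the LPS libraries. They made up 2.54%, 2.18% and 3.06% in replicates 1 to 3 with LPS plus 3A2, so that replicate 3 of that group stood apart. It also had the lowest share of ribosomal protein mRNAs, at 3.56% against 3.95% to 4.08% in the other libraries. Of 10 macrophage markers, 9 passed the filter on low counts. Over all libraries Lyz2 stood at 4058 CPM (counts per 1000000 counts of the scaled library), Cd14 at 1126 CPM and Csf1r at 454 CPM. Fcgr1 stood at 25.2 CPM, Adgre1 at 13.5 CPM and Mertk, the efferocytosis receptor, at 0.593 CPM. The summed level of the 10 markers was 7198 to 7268 CPM under LPS and 6264 to 6706 CPM with 3A2. Markers of hepatocytes, the main source of most complement proteins in the body, reached a sum of 0.307 CPM in the highest library, and those of fibroblasts 0.439 CPM. All 5 epithelial markers were at 0 in every library, lymphocyte markers reached at most 0.669 CPM, and neutrophil markers summed to 5.85 to 7.47 CPM. In these bulk RNA samples, fewer cells of a type and less RNA per cell cannot be told apart.

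The upstream regions of 5 members are shown. C1qb and C1qc had no count, the difference of C1ra between the groups had the smallest p among the members, and Cfp was the most abundant member. C3 was included as the hub of the cascade, not for its level or its difference between the groups. RefSeq windows were found for 7 of the 9 genes, and the 250 bases before the annotated start are printed 5′ to 3′ in the direction of the gene, in assembly GRCm38.p6. The windows lie at chr4:136886201-136886450 (C1qb, minus strand), chr4:136892915-136893164 (C1qc, minus), chr6:124512371-124512620 (C1ra, plus), chr17:57228137-57228386 (C3, minus) and chrX:20931556-20931805 (Cfp, minus). Capitals mark matches on either strand to 1 of 5 motifs: the PU.1 core GAGGAA, AP-1 TGANTCA, NF-κB GGGNNNNNCC, the interferon response motif GAAANNGAAA and C/EBP TTGCNNAA.
C1qb: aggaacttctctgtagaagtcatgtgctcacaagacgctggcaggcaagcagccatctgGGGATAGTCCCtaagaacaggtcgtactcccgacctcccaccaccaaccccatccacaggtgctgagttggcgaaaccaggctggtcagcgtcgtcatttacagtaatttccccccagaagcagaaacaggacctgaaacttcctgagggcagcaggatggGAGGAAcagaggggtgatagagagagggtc
C1qc: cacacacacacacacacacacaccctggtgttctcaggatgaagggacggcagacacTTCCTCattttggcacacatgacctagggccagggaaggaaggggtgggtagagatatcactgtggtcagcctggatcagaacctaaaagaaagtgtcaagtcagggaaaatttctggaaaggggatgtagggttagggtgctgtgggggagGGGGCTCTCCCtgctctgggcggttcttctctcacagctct
C1ra: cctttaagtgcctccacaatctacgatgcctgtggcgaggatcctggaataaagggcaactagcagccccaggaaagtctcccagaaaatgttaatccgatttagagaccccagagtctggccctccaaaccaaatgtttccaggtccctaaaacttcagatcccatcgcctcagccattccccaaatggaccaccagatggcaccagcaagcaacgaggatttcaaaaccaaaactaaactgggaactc
C3: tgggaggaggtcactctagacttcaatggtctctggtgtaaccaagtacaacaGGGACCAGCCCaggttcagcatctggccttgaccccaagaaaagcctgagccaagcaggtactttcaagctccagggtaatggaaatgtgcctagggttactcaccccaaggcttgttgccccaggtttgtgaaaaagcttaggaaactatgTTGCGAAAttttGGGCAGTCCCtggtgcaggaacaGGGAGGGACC
Cfp: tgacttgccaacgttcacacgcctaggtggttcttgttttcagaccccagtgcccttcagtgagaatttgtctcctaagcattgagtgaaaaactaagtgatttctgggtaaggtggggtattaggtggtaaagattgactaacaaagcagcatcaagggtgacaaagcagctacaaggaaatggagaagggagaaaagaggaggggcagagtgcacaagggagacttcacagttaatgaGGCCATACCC
C1qb and C1qc each held 1 match to the PU.1 core, starting 30 and 193 bases before the start, and this motif occurred in 23.3% of all 32851 RefSeq windows of the same length. The loose NF-κB motif was matched in the C1qb, C1qc, C3, C3ar1 and Cfp windows and occurs in 45.8% of all windows. Overlapping matches on the 2 strands count separately, and by that count C3 held 5. C3 also held the C/EBP motif, found in 9.56% of windows, 45 bases before the start. C1ra matched none of the 5 motifs in this window. C3ar1, whose window is not shown, also matched the AP-1 motif, found in 6.75% of windows, and the interferon response motif, found in 2.98%, was matched in none of the 7 windows. These matches describe letters only and do not show binding.

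The 3 chains of C1q were not detected. C1qa, C1qb and C1qc, which lie next to each other on chromosome 4 and encode the chains of the classical pathway's recognition protein, had 0 counts in each of the 6 libraries. A count of 0 allows 3 counts, which is 0.404 to 0.495 CPM in a single library. Over all 6 libraries, with 39524217 counts, it allows a level of up to 0.0759 CPM for each chain. These limits cover counting error only. With all values equal, no test of a group difference was possible, and a difference below these limits was not detectable at this depth.

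The 6 other members spanned from 1.34 to 108.2 CPM over the libraries. Levels are compared between genes only per length, as RPKM, the CPM divided by kilobases of annotated exon, with exon lengths from GENCODE M21, which may differ from the annotation the authors used. Cfp was highest, at 57.8 ± 3.10 RPKM with LPS and 57.6 ± 6.78 RPKM with 3A2 (SD, n = 3 each). C5ar1 followed at 14.1 to 17.3 RPKM over the 6 libraries, then C3ar1 at 11.3 to 13.2, C1ra at 4.26 to 6.90, C3 at 1.23 to 1.69 and Cfb at 0.473 to 1.26 RPKM. Neighbours in this order did not overlap in range, except C3 and Cfb, and within each of the 6 libraries all 6 genes stood in this order. The plot of CPM by library shows the span from the undetected C1q chains to Cfp.

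**Figure D1:**
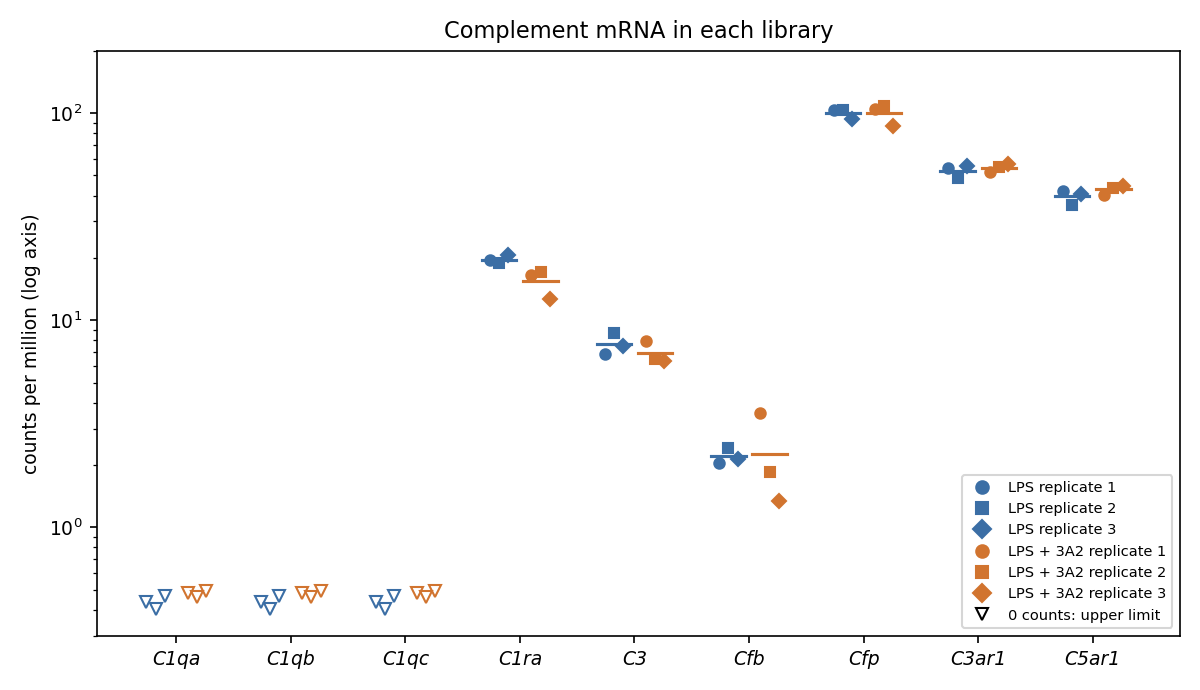
CPM (log axis) of the 9 complement genes in each of the 6 libraries, LPS in blue and LPS plus 3A2 in orange, with bars at the group means. Open triangles mark libraries with 0 counts, drawn at the level that 3 counts would give; C1qa, C1qb and C1qc have only triangles, and only C1ra shows 2 groups that do not overlap.

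With 3A2, 0 of the 6 tested members passed a Benjamini-Hochberg adjusted p of 0.05 in edgeR's quasi-likelihood fit, and 0% of all 11498 genes did. The members' adjusted p ran from 0.734 to 0.992. At an unadjusted p under 0.05, 1 member stood lower and 0 higher, where 3.09% of all genes stood lower and 3.43% higher, 6.51% together. DESeq2 and limma-voom also called 0 members and 0 genes in all. Of the members 3 had a log2 fold change above 0 and 3 had one below, as 49.6% of all genes did, with a median log2 fold change of 0.012, against 0.0017 over all genes tested. The 95% interval of the fold lay within 1.5-fold in either direction for 4 of the 6 members, against 79.6% of all genes, and within 2-fold for 6 of 6, against 94.1%. The other 2 members, C1ra and Cfb, had wider or shifted intervals.

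C1ra, which encodes the C1r protease that C1q activates, had the smallest p among the members. It measured 19.5, 18.9 and 20.6 CPM in the LPS libraries and 16.6, 17.1 and 12.7 CPM with 3A2. All 3 libraries with 3A2 lay below all 3 with LPS, as they did for 6.46% of all genes, and replicate 3 with 3A2 was the lowest. The group means were 19.6 ± 0.866 and 15.4 ± 2.40 CPM (SD, n = 3 each), a fold of 0.789 (95% interval 0.645 to 0.965) and a log2 fold change of -0.34 (SE 0.14). The difference did not pass over all genes, with an unadjusted p of 0.0235 and an adjusted p of 0.734 by edgeR, and it ranked 362 among all genes by p. Without replicate 3 of LPS plus 3A2, the library with the largest mitochondrial share, the log2 fold change was -0.22. Without replicate 2 of that group it was -0.42, and with the ratio of mitochondrial to ribosomal protein mRNA as a covariate it was -0.17. The summed macrophage markers also lay lower in the 3 libraries with 3A2 than in the 3 with LPS. Most of that sum is Lyz2, whose mean was 4337 ± 69.5 CPM under LPS alone and 3780 ± 125 CPM with LPS plus 3A2 (SD over 3 libraries each). Lyz2, Csf1r and Spi1 had log2 fold changes of -0.20, -0.19 and -0.21, and Fcgr1 and Itgam had -0.12 and -0.087. Those of Cd14, Cd68, Ptprc and Adgre1 were -0.028, -0.018, -0.044 and 0.043, and 0 of the 9 tested markers passed by edgeR. The part of library composition and of these markers in the difference was not tested.

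C1ra shares sequence with its neighbouring paralog C1rb. Of the distinct stretches of 50 bases in annotated C1ra transcripts, 48% also occur in C1rb transcripts, so reads of the pair may be split or dropped and both values are uncertain. C1rb, which was below the filter, had 1, 9 and 8 counts under LPS alone and 0, 4 and 6 with the antibody. Summed, the pair had 134, 150 and 142 counts with LPS and 102, 115 and 82 with 3A2. Its fold was 0.782 (95% interval 0.643 to 0.95), with an adjusted p of 0.716 by edgeR, against 0.789 for C1ra alone. The summing was chosen after the data were seen.

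The genes whose pattern over the 6 libraries came closest to that of C1ra were Tnfsf9 and Banp, by the root mean square difference of centred log2 CPM, at 0.042 and 0.045. Among 11497 other genes, the nearest members were Cfp at rank 2362 and C3 at rank 2638. Cfb was the farthest member from C1ra, at rank 8863.

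Of the components of the alternative pathway, C3 was scarce. It encodes the central protein whose cleavage all pathways share. C3 measured 6.88, 8.70 and 7.52 CPM under LPS and 7.95, 6.46 and 6.34 CPM with 3A2. The groups overlapped, and 38 to 65 counts lay behind each value. The fold was 0.896 (95% interval 0.673 to 1.19), with an adjusted p of 0.893 by edgeR, so a change of up to 1.19-fold upward or to 0.673-fold downward lies within the interval.

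Cfb encodes factor B, the protease subunit of the alternative pathway convertase. It measured 2.05, 2.41 and 2.15 CPM with LPS, from 14, 18 and 14 counts, and 3.57, 1.85 and 1.34 CPM with 3A2, from 22, 12 and 8 counts. The libraries with 3A2 lay on both sides of the LPS libraries, with replicate 1 above all of them. The exact 95% counting interval was 13.8 to 33.3 counts for that library and 3.45 to 15.8 counts for replicate 3. These intervals overlap, which is not a test of whether the libraries differ. The fold was 1.02 (95% interval 0.59 to 1.76) with an edgeR adjusted p of 0.991. Leaving out replicate 1 of LPS plus 3A2, the log2 fold change was -0.46, against 0.028 with all libraries. In GENCODE M21 the same-strand gene model Gm20547 covers 79.5% of the exonic bases of Cfb. That gene was not analysed here, and the level of Cfb is uncertain to the extent that such a model entered the counting.

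Cfp encodes properdin, which stabilizes the convertase and is made by myeloid cells. It measured 103.7, 103.2 and 94.1 CPM under LPS and 105.2, 108.2 and 86.5 CPM with 3A2. The lowest and the highest of the 6 values both belonged to the 3A2 group, so the groups overlapped fully. The fold was 0.997 (95% interval 0.881 to 1.13), with an adjusted p of 0.992 by edgeR. Replicate 3 with 3A2, the lowest, was also the lowest for C1ra, C3 and Cfb. Without it the log2 fold change of Cfp was 0.088, against -0.005 with all libraries, and did not pass.

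For both anaphylatoxin receptors the groups overlapped and no difference passed the test. C3ar1, the receptor for C3a, measured 54.2, 48.8 and 55.4 CPM under LPS and 51.9, 54.8 and 56.8 CPM with 3A2. Its fold was 1.03 (95% interval 0.908 to 1.17), with an adjusted p of 0.937 by edgeR. C5ar1, the receptor for C5a, measured 42.2, 36.1 and 40.5 CPM under LPS and 40.4, 43.4 and 44.6 CPM with 3A2. Its fold was 1.08 (0.938 to 1.25), with an adjusted p of 0.841 by edgeR. For both receptors LPS replicate 2 was the lowest of the 6 libraries and replicate 3 with 3A2 the highest.

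The ratio of C3ar1 to C5ar1 counts needs no scaling between libraries. It was 1.28, 1.35 and 1.37 with LPS and 1.29, 1.26 and 1.27 with 3A2, so the groups overlapped by a narrow margin. The means were 1.33 ± 0.0439 and 1.27 ± 0.0114 (SD, n = 3 each), and an exact two-sided permutation test gave p = 0.2, where 0.1 is the smallest that 3 against 3 libraries allow.

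Spread between replicates exceeded counting error most for Cfp and Cfb with 3A2. With LPS the coefficient of variation was 4.41% for C1ra, 11.9% for C3 and 8.38% for Cfb, where counting alone gives 8.57%, 13.7% and 25.5%. With 3A2 it was 15.5% for C1ra and 52% for Cfb, where counting alone gives 10.2% and 26.7%. The 2 receptors varied by 4.46% to 7.91% within a group, against 5.23% to 6.13% from counting. Cfp, the most deeply counted member, varied by 5.37% with LPS and 11.8% with 3A2, against 3.79% and 4.01% from counting.

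Under the other scalings, filters, tools and left-out libraries C1ra, C3 and C5ar1 kept the side of 0 they had with all libraries, and Cfb, Cfp and C3ar1 each crossed it at least once, as the plot of other settings shows.

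**Figure D2:**
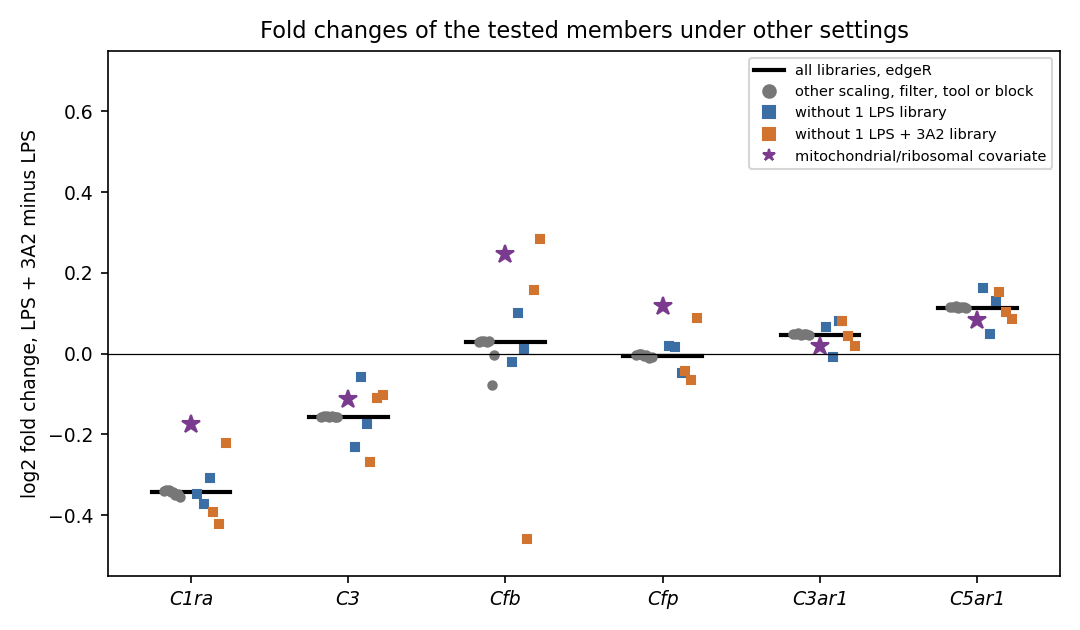
Log2 fold change of each tested member under the other settings: grey points for scaling, filter, tool, block or summing with C1rb, squares for a left-out library, stars for the mitochondrial to ribosomal covariate and black bars for the value reported. C1ra stays below 0, from -0.42 to -0.17, while Cfb runs from -0.46 to 0.28.

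Other genes of the pathway, 49 in lists by role, mostly had few or no counts: 21 had 0 counts in all libraries, 15 lay below the filter and 13 were tested. Of the 13, 0 passed the adjusted threshold of 0.05 by edgeR, 7 had a log2 fold change above 0 and 6 one below, and the median log2 fold change was 0.0032. At an unadjusted p under 0.05 by edgeR, 1 stood higher and 1 lower, where 3.43% of all genes stood higher and 3.09% lower. All 3 libraries with 3A2 lay above all 3 with LPS for 2 of them and below for 2, against 5.84% and 6.46% of all genes. The plot of folds with their intervals sets these genes beside the members.

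**Figure D3:**
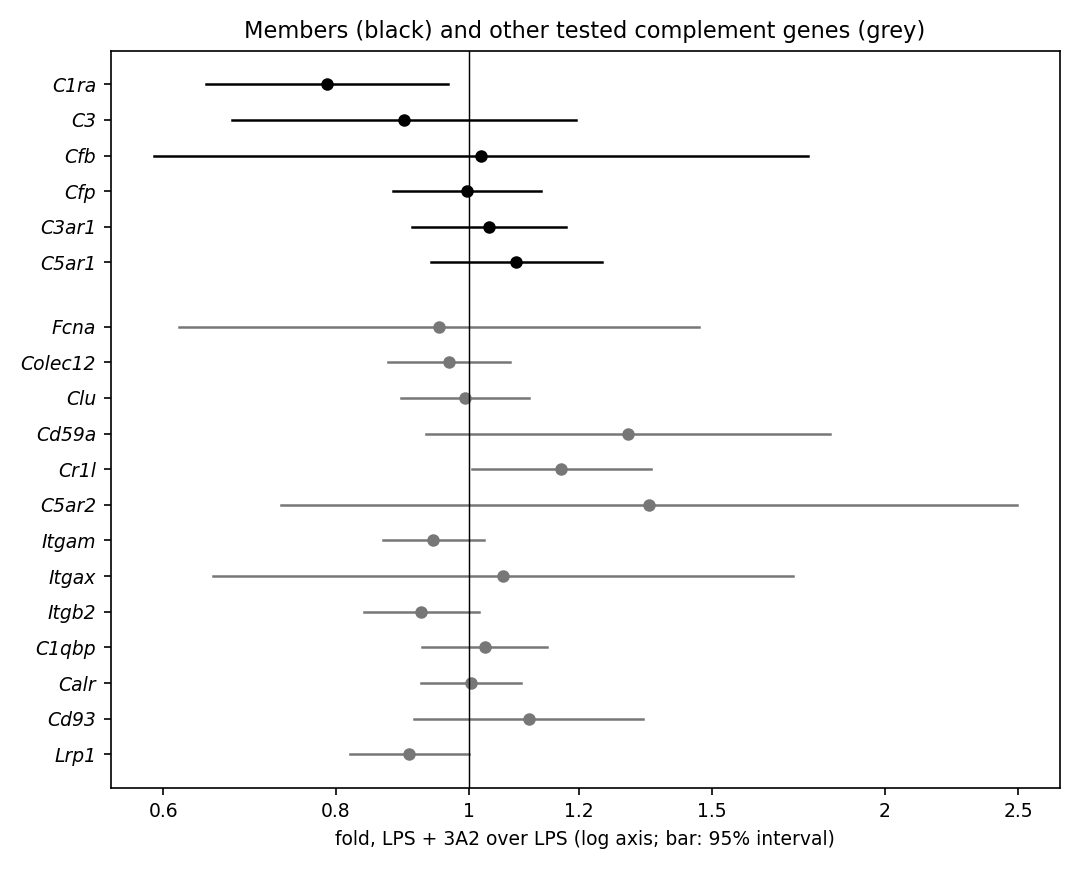
Fold of LPS plus 3A2 over LPS (log axis) with its 95% interval by edgeR, for the 6 tested members in black and 13 other tested complement genes in grey. The intervals of C1ra, at 0.645 to 0.965, Cr1l and Lrp1 do not include 1, and no gene shown passed after adjustment over all genes.

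The remaining early components did not reach the filter. Among 8 genes of early proteases, C2 and C4, 0 were tested: over all 6 libraries C1s1, whose product is cleaved by C1r, had 3 counts, C2 had 1, C4b had 12 and Masp2, a lectin pathway protease, had 49. Cfd, which encodes factor D, the protease that cuts factor B, had 0 counts. The same-strand model that covers much of Cfb also covers 42.8% of the exonic bases of C2 in GENCODE M21, so the level of C2 is uncertain too. Of 7 terminal pathway genes, 4 had 0 counts and 3 lay below the filter, with Hc, the gene for C5, at 1 count and C9 at 12.

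Of 7 genes listed under lectin pathway recognition, 2 were tested. Colec12, a scavenger receptor with a collectin domain, measured 200.8 ± 14.9 CPM under LPS and 194 ± 10.2 CPM with 3A2, a fold of 0.966 (95% interval 0.872 to 1.07). Fcna, which encodes ficolin A, measured 3.22 ± 0.146 and 3.07 ± 0.876 CPM, a fold of 0.95 (0.616 to 1.47). Mbl1 and Mbl2, the mannose-binding lectins, had 0 counts, as had Fcnb and Colec10, and Colec11 had 1 count over all libraries. Colec12 thus stood well above Fcna per length, with a mean of 22.6 RPKM against 2.29 RPKM.

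Regulators were present in part. Clu, which encodes the soluble inhibitor clusterin, was the only tested soluble regulator of 8, with means of 95.1 ± 2.32 (LPS) and 94.4 ± 5.04 CPM (LPS plus 3A2) and a fold of 0.993 (95% interval 0.891 to 1.11). Serping1, the gene for the C1 inhibitor, had 1 count over all libraries. Cr1l, which encodes Crry, a rodent membrane inhibitor of C3 convertases, measured 33.5 ± 2.51 CPM under LPS and 39.1 ± 2.59 CPM with 3A2. All 3 libraries with 3A2 lay above all 3 with LPS, as they did for 5.84% of all genes. Its fold of 1.17 (1.00 to 1.35) had an unadjusted p of 0.0452 and an adjusted p of 0.748 by edgeR. On the log2 scale the fold came to 0.22 over the 6 libraries and 0.16 with the mitochondrial to ribosomal covariate. Without replicate 3 of LPS plus 3A2 it was 0.17, and without replicate 2 of that group 0.24. Cd59a, an inhibitor of the membrane attack complex, stood at a fold of 1.30 (0.93 to 1.83) with overlapping groups. Cd55 and Cd59b had 0 counts, and Cd46 had 46 over all libraries.

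Per length, the chains of CR3, a receptor for bound C3 fragments, were the most abundant of the 58 complement genes after Calr. Itgb2 and Itgam, which encode its β and α chains, had means of 93.7 and 83.4 RPKM over all libraries. Itgam measured 431 ± 7.21 CPM under LPS and 406 ± 2.92 CPM with 3A2, a fold of 0.942 (95% interval 0.865 to 1.02). Itgb2 measured 297.7 ± 5.94 and 275 ± 20.9 CPM, a fold of 0.923 (0.838 to 1.02). For both chains all libraries with 3A2 lay below those with LPS, as they did for 6.46% of all genes. For Itgb2 the margin was narrow, with 293.8 CPM in LPS replicate 1 and 293.7 CPM in replicate 2 of LPS plus 3A2. The adjusted p by edgeR was 0.812 for Itgam and 0.775 for Itgb2. On the log2 scale the fold of Itgb2 came to -0.12 over the 6 libraries and -0.028 with the mitochondrial to ribosomal covariate. Without replicate 3 of LPS plus 3A2 it was -0.059, and without replicate 2 of that group -0.17. In the same order, the fold of Itgam was -0.087, -0.078, -0.084 and -0.093. C5ar2, a second receptor for C5a, had 7, 8 and 17 counts with LPS and 9, 16 and 14 with 3A2. Cr2 and Vsig4, receptors for C3 fragments, had 0 counts.

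Genes listed here for proteins reported to bind C1q were expressed, while the C1q chains were not detected. Calr, the gene for calreticulin, measured 582 ± 7.48 CPM under LPS and 583 ± 16.2 CPM with 3A2, a fold of 1.00 (95% interval 0.922 to 1.09). Lrp1, an endocytic receptor reported to act with calreticulin in uptake, measured 1085 ± 50.4 and 981 ± 101 CPM, a fold of 0.905 (0.819 to 0.999) with an unadjusted p of 0.0486 and an adjusted p of 0.748 by edgeR. Its groups overlapped. On the log2 scale the fold came to -0.14 over the 6 libraries and -0.021 with the mitochondrial to ribosomal covariate. Without replicate 3 of LPS plus 3A2 it was -0.067, and without replicate 2 of that group -0.21. Cd93 measured 16.2 ± 0.327 and 17.9 ± 1.43 CPM, a fold of 1.10 (0.912 to 1.34). Its libraries with 3A2 all lay above those with LPS, as they did for 5.84% of all genes. By edgeR its unadjusted p was 0.293 and its adjusted p 0.847. On the log2 scale the fold of Cd93 came to 0.14 over the 6 libraries and 0.056 with the covariate. Without replicate 3 of LPS plus 3A2 it was 0.076, and without replicate 2 of that group 0.18.

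**Figure D4:**
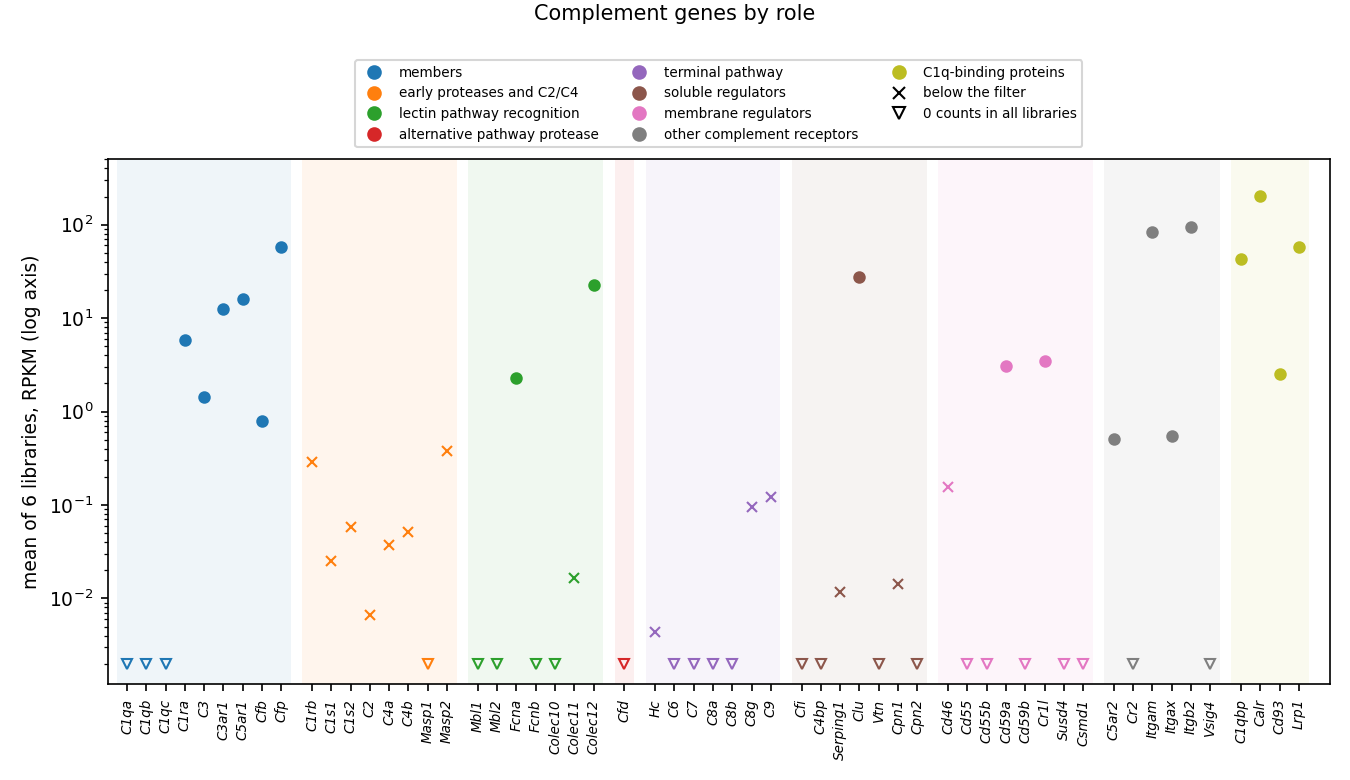
Mean level over the 6 libraries in RPKM (log axis) of the 9 members and the other complement genes described here, coloured by role; crosses are genes below the filter on low counts. Open triangles at the lower edge are genes with 0 counts in all libraries and stand for no level; the C1q chains and 21 other genes are among them.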

How the data were processed

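Per the labels' protocols, total RNA was purified (TRIzol, then a column), depleted of ribosomal RNA and sequenced as strand-specific paired-end libraries. The authors deposited a table of raw counts, 1 row per gene symbol and 1 column per library. Per the submitters' processing notes, HISAT2 and edgeR were used, without version or role, and the build is GRCh38, a human one, although the symbols are mouse. What counter, annotation and strand setting were used is not given in the sources used here. Values typed into 3 unnamed columns were not used.

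Groups and replicate numbers came from the sample titles, and the labels state biological triplicates. Members and lists were chosen with earlier results of these data known. Counts were filtered with filterByExpr, TMM-scaled and tested in edgeR 4.0.16, under R 4.3.3 (robust quasi-likelihood F test, two-sided, Benjamini-Hochberg over 11498 genes, threshold 0.05), after a trial on simulated data. CPM used the scaled totals, and limits for 0 counts the unscaled totals. All members were named, and per role list the most abundant tested gene and up to 2 by p, with others as counts; some genes under this rule are not reported here. Alternatives were DESeq2 1.42.0, limma-voom (limma 3.58.1), DESeq2 scaling, totals that leave out mitochondrial genes and the top 20, unfiltered counts, a minimum of 1 CPM in every library, a replicate block, a composition covariate, and leaving out each library. No pair of libraries matched within sampling noise (chi-square per degree of freedom 3.33 to 22).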

Additional observations from a re-analysis of the deposited data

How the results depend on the processing

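No member passed the adjusted threshold of 0.05 under any of 14 other settings, with 0 calls by edgeR under each scaling, filter, block, covariate and left-out library, and 0 by DESeq2 and limma-voom. Over all genes, 0 were called with all libraries; the count was 16 without a filter, 18 with the composition covariate, 1 with the replicate block and 0 to 25 with 1 library left out, the 25 arising without replicate 2 of LPS plus 3A2. No shared effect of the replicate number was seen: same-numbered libraries had deviations correlated at -0.0065, 0.032 and -0.156. These values cannot show whether same-numbered cultures were handled together. The replicate block moved the log2 fold change of C1ra to -0.35. C1ra, C3 and C5ar1 kept their direction in all alternatives run, but with 1 library left out their log2 fold changes ran from -0.42 to -0.22, from -0.27 to -0.057 and from 0.049 to 0.16. Signs turned, always without passing the threshold and with the cause not tested, for genes whose fold lay near 1. The log2 fold change of Cfb was -0.079 with limma-voom, -0.0029 with the replicate block and -0.46 to 0.28 with 1 library left out. That of Cfp was 0.12 with the covariate and -0.067 to 0.088 with 1 library left out, and that of Clu 0.053 and -0.041 to 0.032. With 1 library left out C3ar1 ran from -0.0081 to 0.081, Calr from -0.017 to 0.024, Colec12 from -0.10 to 0.0062 and Fcna from -0.30 to 0.0998. Among the tested members Cfb had the fewest counts, at 8 to 22 a library.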
